A study of Rattus norvegicus with 30 samples.

Results

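The genes described here are 10 CXC chemokines of the rat, Cxcl1, Cxcl2, Cxcl3, Cxcl6, Cxcl9, Cxcl10, Cxcl11, Cxcl12, Cxcl13 and Cxcl16. They were chosen by symbol, and each had 1 row in the table of read counts (10 of 22914 rows) and 1 row in the table of FPKM, a level scaled to gene length and to the mapped reads of the library. All of them had enough reads to be tested. Their levels were followed in lung tissue of rats with severe acute pancreatitis (SAP), a disease of the pancreas that can injure the lung, and in rats also given dexamethasone or emodin.

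CXC chemokines are small secreted proteins that direct the migration of leukocytes through receptors on the leukocyte surface. Cxcl1, Cxcl2, Cxcl3 and Cxcl6 act on Cxcr2 and call neutrophils into inflamed tissue, and their genes are classical targets of NF-kB. Cxcl9, Cxcl10 and Cxcl11 are induced by interferons and act on Cxcr3 of activated T cells and NK cells. Cxcl12 holds leukocytes and progenitors in tissues through Cxcr4 and is also bound by the scavenger receptor Ackr3, Cxcl13 guides B cells through Cxcr5, and Cxcl16 is a membrane-bound ligand of Cxcr6 that can be shed.

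Lung RNA was sequenced from 3 male Sprague Dawley rats, 8 weeks old, in each of 10 groups, with 1 library of whole lung per rat and 30 libraries in all. The study held further rats per group that were not sequenced. Sham rats had the pancreas moved at surgery, Con rats had sterile saline infused into the biliopancreatic duct, and SAP rats had 5.0% sodium taurocholate infused into the same duct. DEX rats had the same taurocholate infusion and intravenous dexamethasone, a synthetic glucocorticoid, at 10 mg/kg, and Emo rats had the infusion and emodin, an anthraquinone of rhubarb, by the intragastric route. Each of these was taken at 6 h and at 24 h, the drugs were given at 2 h and 12 h, so that the 6 h rats had the first dose only, and the remaining rats had vehicle. The dose of emodin was 10 mg/kg in one label of the samples and 40 mg/kg in the treatment protocol. The methods of the study give the latter dose. Perfused whole lung was sequenced, so a lower level in a group can mean fewer cells of a type or less RNA per cell, and these cannot be told apart.

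Between 16813949 and 34692306 reads per library lay on genes. The surfactant gene Sftpc and the club cell gene Scgb1a1 were at 12700 FPKM or more in every library, so the labelled tissue was borne out, and of 5 pancreas markers only Cela1 was above 1 FPKM. Heart muscle markers summed to between 6.2 and 178 FPKM and were uneven within most groups. In DEX-24h vs Sham-24h the glucocorticoid targets Fkbp5 and Dusp1 were up-regulated, 2.79-fold and 2.8-fold, 2 of the 8 rows of a list of 7 such targets, beside 0.992% of all genes called higher. The call of Fkbp5 was lost when the spread was taken from the compared groups alone (adjusted p = 0.112) and that of Dusp1 kept (0.0191). By edgeR 0 of the 8 rows passed in DEX-6h vs SAP-6h or DEX-24h vs SAP-24h, beside 0.515% and 3.73% of all genes. In each, 3 rows were at an unadjusted p under 0.05, beside 12.1% and 23.1% of all genes. In DEX-6h vs Sham-6h Fkbp5, Per1 and Zfp36 were called higher (beside 2.25% of all genes), and in Emo-24h vs DEX-24h 5 of the 8 rows were called lower (1.24%). With the spread from the compared groups alone Fkbp5 and Per1 were kept in the former and 4 rows in the latter. Replicates of a group varied far more than read counting alone would give, by 35.4 to 197 times the counting variance.

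In the RefSeq annotation of the GRCr8 assembly, 8 of the genes lie on chromosome 14. Cxcl2, Cxcl1, Cxcl3 and Cxcl6 stand in one cluster with the platelet chemokine genes Pf4 and Ppbp, Cxcl11, Cxcl10 and Cxcl9 are direct neighbours, and Cxcl13 lies apart. Cxcl12 is on chromosome 4 and Cxcl16 on chromosome 10. Promoter sequence from RefSeq was matched by symbol for 9 of the 10 genes, all but Cxcl3. The 250 bases before the start are shown for the 5 genes that hold the letters GGGNNNTTCC, a form of the NF-kB site, on either strand. Capitals mark each such match and, in Cxcl10, the 1 match to GAAANNGAAA, a core of the interferon-stimulated response element. Matches on opposite strands that overlap, shifted by 1 base, are marked as one run.
Cxcl1, chr14:17479322-17479571, minus strand: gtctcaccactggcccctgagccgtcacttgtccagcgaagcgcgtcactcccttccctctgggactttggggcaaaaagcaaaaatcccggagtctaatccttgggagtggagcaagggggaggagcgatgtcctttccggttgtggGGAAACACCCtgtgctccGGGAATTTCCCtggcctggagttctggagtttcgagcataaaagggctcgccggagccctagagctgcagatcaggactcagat
Cxcl2, chr14:17467256-17467505, minus strand: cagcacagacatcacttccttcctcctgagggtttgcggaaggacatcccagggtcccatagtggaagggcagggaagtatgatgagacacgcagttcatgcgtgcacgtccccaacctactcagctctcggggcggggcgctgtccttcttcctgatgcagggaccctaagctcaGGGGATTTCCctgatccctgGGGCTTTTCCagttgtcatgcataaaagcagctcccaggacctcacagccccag
Cxcl6, chr14:17596418-17596667, minus strand: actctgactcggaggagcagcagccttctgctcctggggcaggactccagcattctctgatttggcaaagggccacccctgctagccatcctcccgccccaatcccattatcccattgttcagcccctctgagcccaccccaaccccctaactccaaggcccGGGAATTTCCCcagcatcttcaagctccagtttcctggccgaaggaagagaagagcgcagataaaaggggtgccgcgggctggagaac
Cxcl10, chr14:15988816-15989065, plus strand: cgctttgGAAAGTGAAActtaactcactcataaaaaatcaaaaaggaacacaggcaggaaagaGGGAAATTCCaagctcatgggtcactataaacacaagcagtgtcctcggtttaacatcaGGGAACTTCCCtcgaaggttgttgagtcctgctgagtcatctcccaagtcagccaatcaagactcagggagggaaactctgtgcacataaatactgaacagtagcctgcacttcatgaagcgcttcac
Cxcl11, chr14:15973478-15973727, plus strand: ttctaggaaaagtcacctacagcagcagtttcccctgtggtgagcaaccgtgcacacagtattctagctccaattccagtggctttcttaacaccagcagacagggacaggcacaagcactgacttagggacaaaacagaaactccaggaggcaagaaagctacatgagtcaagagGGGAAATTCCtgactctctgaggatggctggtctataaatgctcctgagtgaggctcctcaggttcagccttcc

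GGGNNNTTCC was in 5 of these 9 promoters and in 4.53% of the 33465 RefSeq promoters of the same 250 bases. The matches lay 102 to 74 bases before the start in Cxcl1, 74 to 45 in Cxcl2, 88 to 78 in Cxcl6 and 74 to 65 in Cxcl11, and further away, 187 to 118, in Cxcl10. GAAANNGAAA was in 1 of 9 (Cxcl10) and in 3.41% of all promoters. GNACANNNTGTNC, a form of the glucocorticoid response element that reads alike on both strands, was in 0 of 9 and in 0.374% of all. TATAAA was in 3 of 9 (Cxcl10, Cxcl11 and Cxcl13) and in 12.9% of all. A match of letters is a description and not a site in use, and the motifs were written down after the sequences had been seen.

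The levels of the 10 genes differed widely. Over the 30 libraries Cxcl3 had the highest median, 119 FPKM, with a range of 58.7 to 342 FPKM. Cxcl16 followed at a median of 54.9 FPKM, with a range of 38 to 87.8 FPKM, the smallest ratio of highest to lowest value among the 10 genes. Cxcl1 had a median of 9.84 FPKM and Cxcl12 one of 5.05 FPKM. Cxcl13, Cxcl9 and Cxcl10 had medians of 2.46, 2.41 and 1.63 FPKM, and Cxcl10 ranged from 0.39 to 268 FPKM. Cxcl2, Cxcl11 and Cxcl6 were low, with medians of 0.905, 0.2 and 0.145 FPKM, and Cxcl6 had 0 to 88 reads per library. The aligner's multi-mapped reads had been discarded, so reads shared by Cxcl1, Cxcl2 and Cxcl3, whose sequences are similar, may be missing from these levels.

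**Figure D1:**
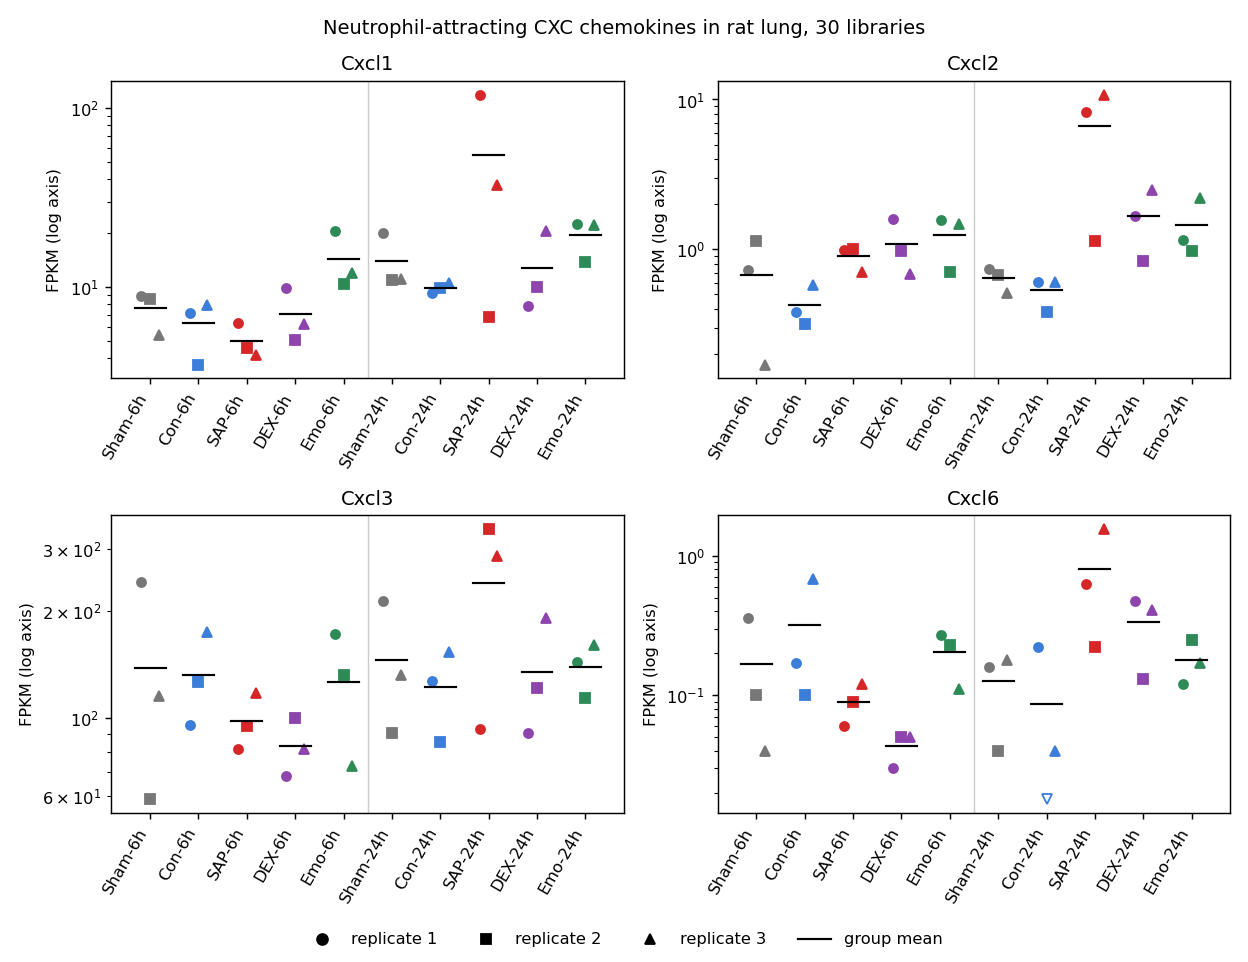
FPKM (log axis) of Cxcl1, Cxcl2, Cxcl3 and Cxcl6 in each of the 30 libraries, with groups on the horizontal axis, a marker shape for each replicate number, a black bar at the arithmetic mean of the group and an open triangle for the 1 library with no Cxcl6 read. SAP-24h reached the highest value of each gene, but replicate 2 of SAP-24h was low in Cxcl1 (6.75 FPKM) and Cxcl2 (1.13 FPKM) and high in Cxcl3 (341.92 FPKM).

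Con-24h rats had saline infused into the duct, while Sham-24h rats had no infusion. SAP-24h vs Sham-24h thus holds the effects of taurocholate and of the infusion together, a day after surgery. The neutrophil chemokines Cxcl1, Cxcl2 and Cxcl6 were up-regulated in it, that is 3 of the 10 genes at an adjusted p below 0.05 and a change of at least 2-fold by edgeR's quasi-likelihood test, beside 5% of the 15934 genes tested. In SAP-24h vs Con-24h 5 of 10 passed, beside 6.91% of all genes, namely the same 3 genes, which were up-regulated, and Cxcl9 and Cxcl11, which were down-regulated. In SAP-24h vs SAP-6h 3 of 10 passed, again Cxcl1, Cxcl2 and Cxcl6 and all up-regulated, beside 2.42%. These 3 comparisons use the same SAP-24h libraries and are not independent of each other. Each of the 11 calls in them was lost when the spread was estimated from the compared groups alone, with adjusted p from 0.0592 (Cxcl2, SAP-24h vs Con-24h) to 0.233 (Cxcl1, SAP-24h vs Sham-24h), where 3, 230 and 177 genes of the whole table were called in place of 796, 1101 and 386, in the order of the comparisons above.

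Cxcl1 (ENSRNOG00000002802), a strong attractant of rat neutrophils also named CINC-1, was at 119.15, 6.75 and 37.15 FPKM in the 3 SAP-24h rats. In Sham-24h it was at 19.97, 10.86 and 11.01 FPKM, at 9.26, 9.87 and 10.58 FPKM in Con-24h and at 6.27, 4.55 and 4.16 FPKM in SAP-6h. One SAP-24h rat thus stood above every other library, a further one was second, and the last lay below all Sham-24h rats. The log2 fold change was 2.15 (SE 0.60, adjusted p = 0.0229) in SAP-24h vs Sham-24h, a 4.44-fold rise. It was 2.63 (adjusted p = 0.00459) in SAP-24h vs Con-24h and 3.59 (SE 0.65, adjusted p = 0.00425), or 12-fold, in SAP-24h vs SAP-6h. Without SAP-24h replicate 1 the value against Sham-24h fell to 0.75 (adjusted p = 0.392) and that against Con-24h to 1.22 (adjusted p = 0.112), and the call against Sham-24h was also lost without Sham-24h replicate 2 (adjusted p = 0.0915) or replicate 3 (adjusted p = 0.0663). The call against SAP-6h was kept without any 1 of the 6 libraries, at a log2 fold change of 2.17 (adjusted p = 0.0256) without SAP-24h replicate 1.

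Cxcl2 (ENSRNOG00000002792), also named MIP-2, was the most strongly up-regulated of the 4 neutrophil chemokines in SAP-24h vs Sham-24h. It was at 8.19, 1.13 and 10.79 FPKM in SAP-24h, at 0.74, 0.67 and 0.51 FPKM in Sham-24h, at 0.61, 0.38 and 0.61 FPKM in Con-24h and at 0.99, 1.0 and 0.71 FPKM in SAP-6h. All 3 SAP-24h rats were above all rats of these other groups, replicate 2 by little. Groups did not overlap for 29.4% of all genes in SAP-24h vs Sham-24h, 32.1% vs Con-24h and 24% vs SAP-6h. The rise was 11.5-fold vs Sham-24h (log2 3.52, SE 0.65, adjusted p = 0.00203), 13.8-fold vs Con-24h (log2 3.79, adjusted p = 0.000773) and 7.92-fold vs SAP-6h (log2 2.99, adjusted p = 0.00865). Each of these 3 calls was kept without any 1 library of the groups compared.

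Cxcl6 (ENSRNOG00000002843), the rat gene for the chemokine known as LIX, rested on few reads. SAP-24h had 36, 13 and 88 reads, or 0.63, 0.22 and 1.55 FPKM, and Sham-24h had 9, 2 and 10 reads, or 0.16, 0.04 and 0.18 FPKM. The groups did not overlap, as for 29.4% of all genes, and the rise was 6.91-fold (log2 2.79, SE 0.85, adjusted p = 0.0345). The log2 fold change was 3.28 (adjusted p = 0.0126) vs Con-24h and 3.24 (adjusted p = 0.0357) vs SAP-6h. In SAP-24h vs Sham-24h the call was lost without any 1 of 5 libraries, namely Sham-24h replicate 1 (adjusted p = 0.0803), 2 (0.138) or 3 (0.0553) and SAP-24h replicate 1 (0.0631) or 3 (0.161, at log2 1.94). Against Con-24h it was lost without Con-24h replicate 2 (log2 2.68, adjusted p = 0.0698) or SAP-24h replicate 3 (log2 2.43, 0.0768) and was larger without Con-24h replicate 1 (log2 5.22, 0.00853). Against SAP-6h it was lost without SAP-6h replicate 1 (0.123), 2 (0.091) or 3 (0.0864) or SAP-24h replicate 1 (0.0583) or 3 (0.152, at log2 2.39).

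Cxcl3 (ENSRNOG00000028043), or CINC-2, followed other rats than Cxcl1 did. It was at 92.58, 341.92 and 285.84 FPKM in SAP-24h and at 214.2, 90.65 and 131.77 FPKM in Sham-24h. Replicate 2 of SAP-24h, low in Cxcl1, thus had the highest Cxcl3 of all 30 libraries, while replicate 1, the highest in Cxcl1, was at the level of the lowest Sham-24h rat. The change in SAP-24h vs Sham-24h was log2 0.84 (SE 0.45, adjusted p = 0.221) and did not pass. The read counts behind these Cxcl3 values were high, 4775, 18615 and 14603 in SAP-24h.

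**Figure D2:**
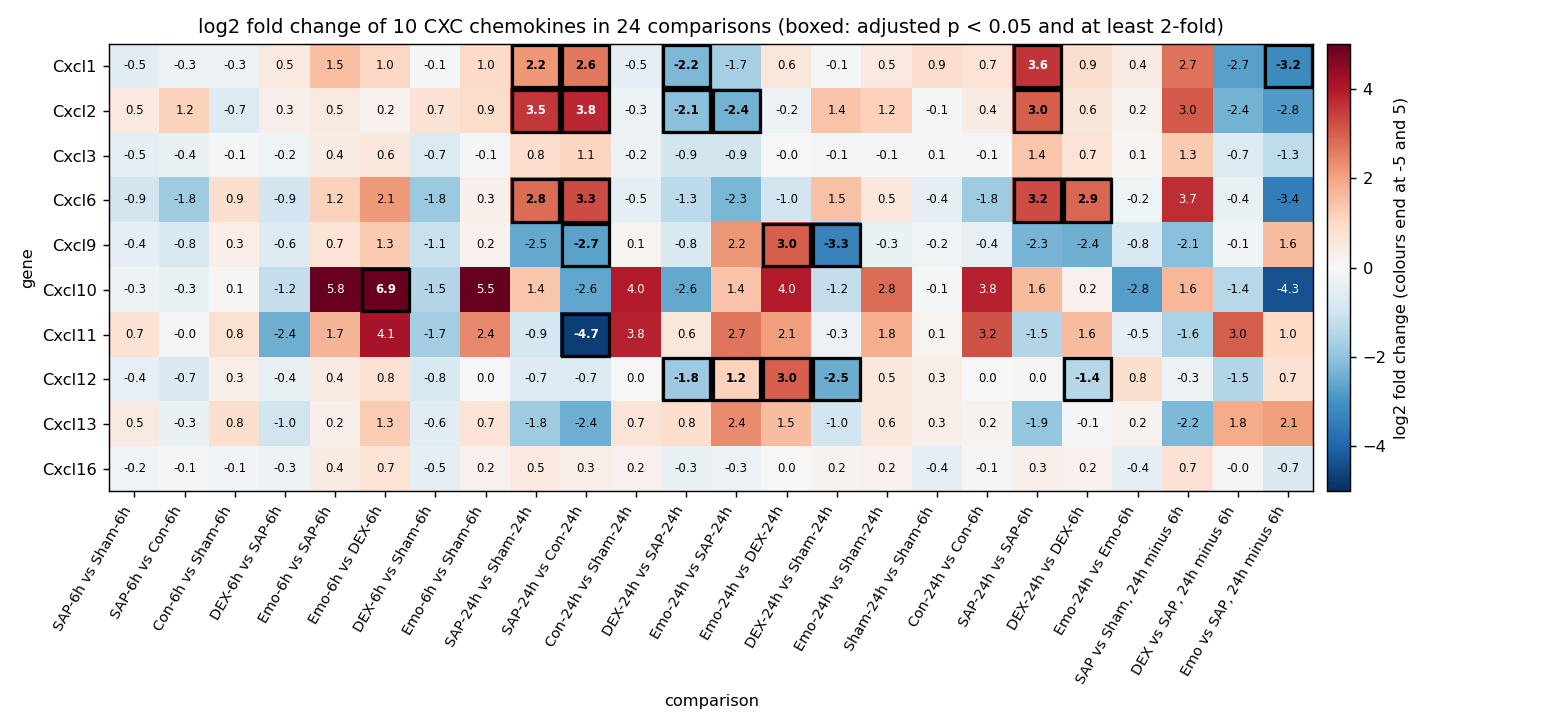
log2 fold change of each of the 10 CXC chemokines (rows) in the 21 two-group comparisons and the 3 tests of a difference between effects (columns), with colour and the printed value giving the log2 fold change and boxes marking adjusted p below 0.05 with at least a 2-fold change. Boxes for Cxcl1, Cxcl2 and Cxcl6 gather in the SAP-24h columns, those for Cxcl12 in the DEX-24h and Emo-24h columns, and no column that compares 6 h groups has a box except Emo-6h vs DEX-6h.

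At 24 h both treated groups had a lower mean of Cxcl2 than SAP rats. In the DEX-24h rats 3 of 10 genes passed against SAP-24h, all down-regulated, Cxcl1, Cxcl2 and Cxcl12, beside 3.73% of all genes tested. In Emo-24h vs SAP-24h 2 of 10 passed, Cxcl2, which was down-regulated, and Cxcl12, which was up-regulated, beside 3.19%. Cxcl2 was at 1.68, 0.84 and 2.48 FPKM in DEX-24h and at 1.16, 0.98 and 2.19 FPKM in Emo-24h. These values overlapped those of SAP-24h, through its replicate 2 at 1.13 FPKM. Cxcl2 fell by 2.11 on the log2 scale in DEX-24h vs SAP-24h (SE 0.60, adjusted p = 0.0316), a 4.31-fold lower level, and by 2.36 in Emo-24h vs SAP-24h (SE 0.61, adjusted p = 0.021), a 5.13-fold lower level. The call with dexamethasone was lost without SAP-24h replicate 1 (adjusted p = 0.0962) or 3 (0.12) or DEX-24h replicate 1 (0.0939) or 2 (0.134), and that with emodin without SAP-24h replicate 1 (0.0641) or 3 (0.0684) or Emo-24h replicate 1 (0.0856) or 2 (0.0981). With the spread from the compared groups alone both calls were lost (adjusted p = 0.23 and 0.171).

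Cxcl1 was at 7.83, 9.97 and 20.55 FPKM in DEX-24h and at 22.59, 13.82 and 22.32 FPKM in Emo-24h. It fell by 2.24 on the log2 scale in DEX-24h vs SAP-24h (SE 0.60, adjusted p = 0.025), a 4.71-fold lower level. In Emo-24h vs SAP-24h its log2 fold change was -1.68 (SE 0.59, adjusted p = 0.0753) and did not pass by edgeR, while DESeq2 called it (adjusted p = 0.0234). Emo-24h vs DEX-24h gave 0.56 (SE 0.58, adjusted p = 0.67) for Cxcl1, so a difference between the treated groups was not detected. The call of Cxcl1 with dexamethasone was lost without SAP-24h replicate 1 (log2 -0.82, adjusted p = 0.399), DEX-24h replicate 1 (0.109) or DEX-24h replicate 2 (0.0986), and with the spread from the compared groups alone (0.28).

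At 6 h no change of the 10 genes in SAP was detected. None of the 10 genes passed in SAP-6h vs Sham-6h or SAP-6h vs Con-6h, beside 0.22% and 0.163% of all genes, and none did by DESeq2 or at an unadjusted p below 0.05 with at least a 2-fold change, where 3.91% and 2.65% of all genes passed at the unadjusted p and 1.27% and 0.609% by DESeq2. Cxcl12 in SAP-6h vs Con-6h had an unadjusted p of 0.0307 with a change below 2-fold, log2 -0.71. In Emo-6h vs SAP-6h 17.9% of all genes had groups that did not overlap. Cxcl1 was highest at 6 h in the Emo-6h rats, at 20.6, 10.32 and 11.99 FPKM, above all SAP-6h rats (6.27, 4.55 and 4.16 FPKM). Its log2 fold change in Emo-6h vs SAP-6h was 1.50 (SE 0.61, adjusted p = 0.296), which did not pass, and in Emo-24h vs SAP-24h it was -1.68. The difference between these effects, tested in the same fit, was -3.18 on the log2 scale (SE 0.85, adjusted p = 0.0411), the 1 of 10 genes that passed, beside 1.68% of all genes tested. Without SAP-24h replicate 1 it was -1.77 (adjusted p = 0.134), and it was lost as well without SAP-6h replicate 2 (0.128) or 3 (0.0705), Emo-6h replicate 1 (0.105) or 3 (0.0683) or Emo-24h replicate 1 (0.0684) or 2 (0.0994). With the spread from the compared groups alone the call was also lost (adjusted p = 0.15).

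In DEX-6h vs SAP-6h none of 10 genes passed by edgeR, beside 0.515% of all genes, and none did by DESeq2 or at an unadjusted p below 0.05 with at least a 2-fold change, beside 1.05% and 2.97%. The values of 5 of the 10 genes did not overlap between these groups, all lower in DEX-6h, namely Cxcl6, Cxcl9, Cxcl10, Cxcl11 and Cxcl16, where 17.5% of all genes had groups that did not overlap. Cxcl10 for example was at 0.42, 0.84 and 0.97 FPKM in DEX-6h and at 2.09, 1.63 and 1.25 FPKM in SAP-6h. Its change, log2 -1.19, had a standard error of 1.75. Marker sums of other cells were also lower in DEX-6h than in SAP-6h without overlap. They were 20.6 to 27.4 against 48.2 to 58.8 FPKM for NK and cytotoxic cells and 48.7 to 59.1 against 68.5 to 79.8 FPKM for T cells. For macrophages and monocytes they were 253 to 359 against 369 to 415 FPKM. The part of these cells in the chemokine values was not tested.

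**Figure D3:**
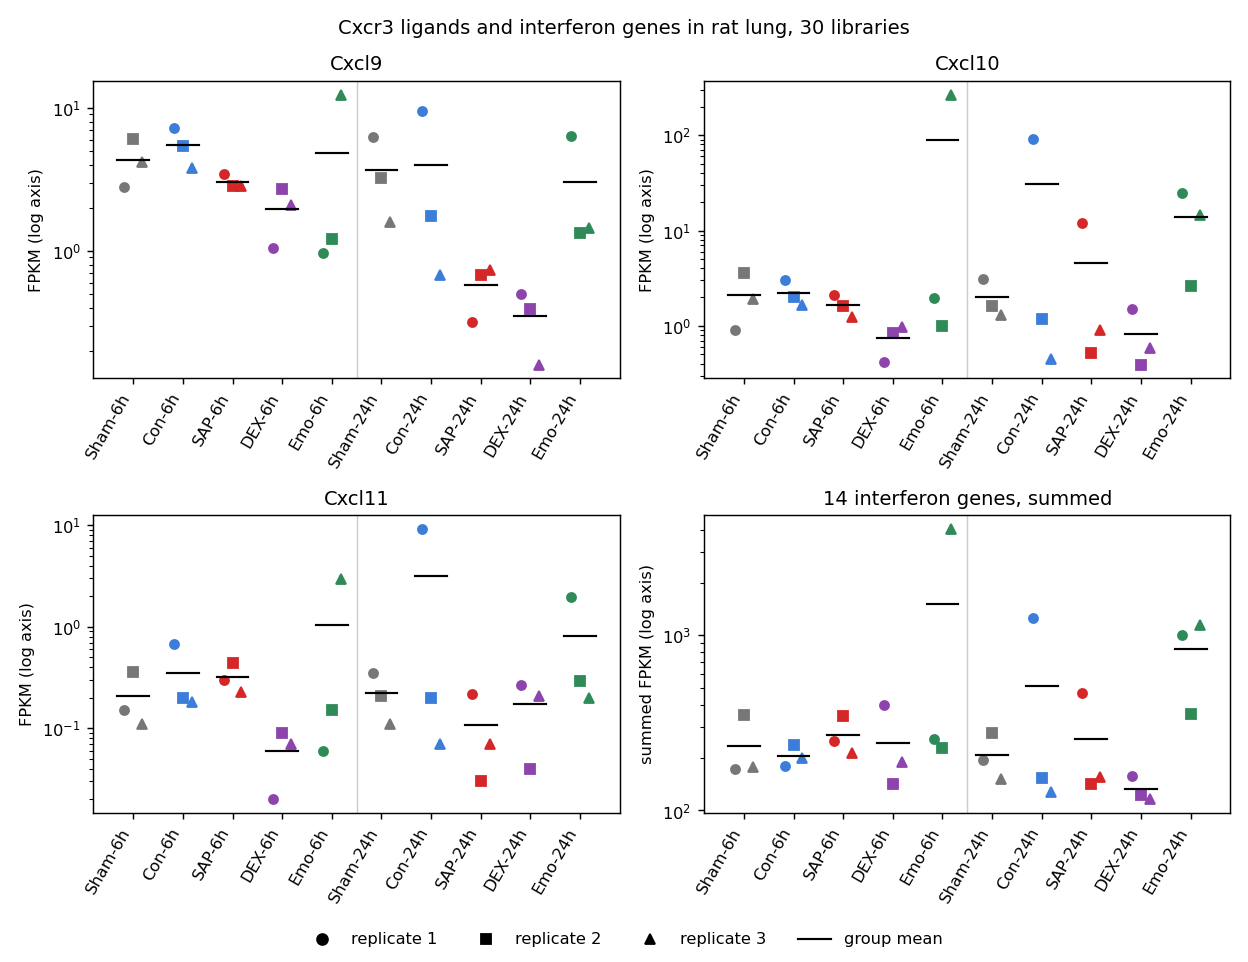
FPKM (log axis) of Cxcl9, Cxcl10 and Cxcl11 and the summed FPKM of 14 interferon genes in each of the 30 libraries, drawn as in the plot of the neutrophil chemokines. Emo-6h replicate 3 and Con-24h replicate 1 stand above the rest of their groups in all 4 panels, and the group means of Cxcl9 are lowest in SAP-24h and DEX-24h.

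Cxcl10 and Cxcl11 were very uneven within a few groups, for example with 1 rat far above the others in Emo-6h and Con-24h. Cxcl10 (ENSRNOG00000022256), also named IP-10, was at 1.95, 1.0 and 267.61 FPKM in Emo-6h, at 90.5, 1.19 and 0.45 FPKM in Con-24h, at 24.77, 2.61 and 14.69 FPKM in Emo-24h and at 12.11, 0.52 and 0.91 FPKM in SAP-24h. In Sham-24h it was at 3.07, 1.63 and 1.31 FPKM and in DEX-24h at 1.5, 0.39 and 0.59 FPKM. Cxcl11 (ENSRNOG00000022298), also called I-TAC, was high in the same 2 rats, at 2.95 FPKM in Emo-6h replicate 3 and 9.22 FPKM in Con-24h replicate 1, against 0.06 and 0.15 FPKM and 0.2 and 0.07 FPKM in the others of these groups. In Emo-24h Cxcl11 was at 1.96, 0.29 and 0.2 FPKM, so that replicate 1 stood apart there. The interferon genes were high in these 2 rats too. Their summed level, over 14 genes, was 4040 FPKM in Emo-6h replicate 3 (256 and 228 FPKM in the others of its group) and 1260 FPKM in Con-24h replicate 1 (153 and 128 FPKM). In DEX-6h the sum was highest in replicate 1, 400 FPKM against 141 and 188 FPKM, and this rat had the lowest Cxcl10 (0.42 FPKM) and Cxcl11 (0.02 FPKM) of its group.

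In Emo-6h vs DEX-6h 1 of 10 genes passed, Cxcl10, at log2 6.94 (SE 1.92, adjusted p = 0.0497), beside 1.41% of all genes. Without Emo-6h replicate 3 the value was 0.98 (adjusted p = 0.814), and it was lost as well without DEX-6h replicate 1 (0.194), 2 (0.134) or 3 (0.149), with the spread from these groups alone (0.206), with RLE scaling (0.0519), with no filter on low counts (0.0505) and with the replicate number as a block (0.0613), while DESeq2 called it (0.000216). Emo-6h replicate 3 also had the highest marker sums of its group for NK and cytotoxic cells (221 against 71.9 and 52.5 FPKM), T cells (135 against 64.3 and 63.5 FPKM) and macrophages and monocytes (633 against 333 and 363 FPKM), and the part of these in the Cxcl10 value was not tested. In Emo-24h all 3 rats had more Cxcl10 than any DEX-24h rat, where 29.4% of all genes had groups that did not overlap. The log2 fold change of 3.98 (SE 1.72, adjusted p = 0.168) did not pass, while DESeq2 and the fit on these groups alone called it. Cxcl11 was down-regulated in SAP-24h vs Con-24h (log2 -4.70, SE 1.47, adjusted p = 0.0247). Without Con-24h replicate 1 this was -0.19 (adjusted p = 0.949), and the call was also lost without SAP-24h replicate 2 (0.0743) or 3 (0.0806), and it was -5.76 (0.0493) without SAP-24h replicate 1. It thus rests on 398 reads in 1 rat. Con-24h replicate 1 also had the highest sums of its group for markers of T cells (154 against 99.6 and 37.2 FPKM), NK and cytotoxic cells (137 against 63.6 and 20.7 FPKM) and macrophages and monocytes (403 against 310 and 285 FPKM), whose part in this value was not tested.

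Cxcl9 (ENSRNOG00000022242), also named Mig, gave the more even pattern among the Cxcr3 ligands. It was at 0.32, 0.68 and 0.73 FPKM in SAP-24h and at 0.5, 0.39 and 0.16 FPKM in DEX-24h. In Sham-24h it was at 6.3, 3.21 and 1.59 FPKM, in Con-24h at 9.45, 1.75 and 0.68 FPKM and in Emo-24h at 6.33, 1.33 and 1.44 FPKM. Against Sham-24h, groups did not overlap for 29.4% of all genes with SAP-24h and 26.1% with DEX-24h. Against Emo-24h these shares were 29.3% and 29.4%. For Cxcl9, all SAP-24h and all DEX-24h rats were below all Sham-24h and all Emo-24h rats. In DEX-24h vs Sham-24h it was down-regulated 10-fold (log2 -3.32, SE 0.95, adjusted p = 0.0354), in SAP-24h vs Con-24h 6.35-fold (log2 -2.67, adjusted p = 0.0392), and in Emo-24h vs DEX-24h it was up-regulated 7.99-fold (log2 3.00, SE 0.95, adjusted p = 0.049). In SAP-24h vs Sham-24h the log2 fold change of Cxcl9 was -2.55 (SE 0.91, adjusted p = 0.0664) and did not pass by edgeR, while DESeq2 called it (adjusted p = 0.029).

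These Cxcl9 calls were near the threshold. In DEX-24h vs Sham-24h the call was lost without Sham-24h replicate 1 (log2 -2.71, adjusted p = 0.163) or DEX-24h replicate 1 (0.0743), 2 (0.0973) or 3 (0.164). In SAP-24h vs Con-24h it was lost without Con-24h replicate 1 (log2 -0.97, adjusted p = 0.504) or SAP-24h replicate 1 (0.135), 2 (0.071) or 3 (0.0794), and in Emo-24h vs DEX-24h without DEX-24h replicate 1 (0.0898), 2 (0.125) or 3 (0.194) or Emo-24h replicate 1 (log2 1.92, 0.326) or 2 (0.0638). With the replicate number as a block the last 2 calls were lost (0.0762 and 0.0657).

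**Figure D4:**
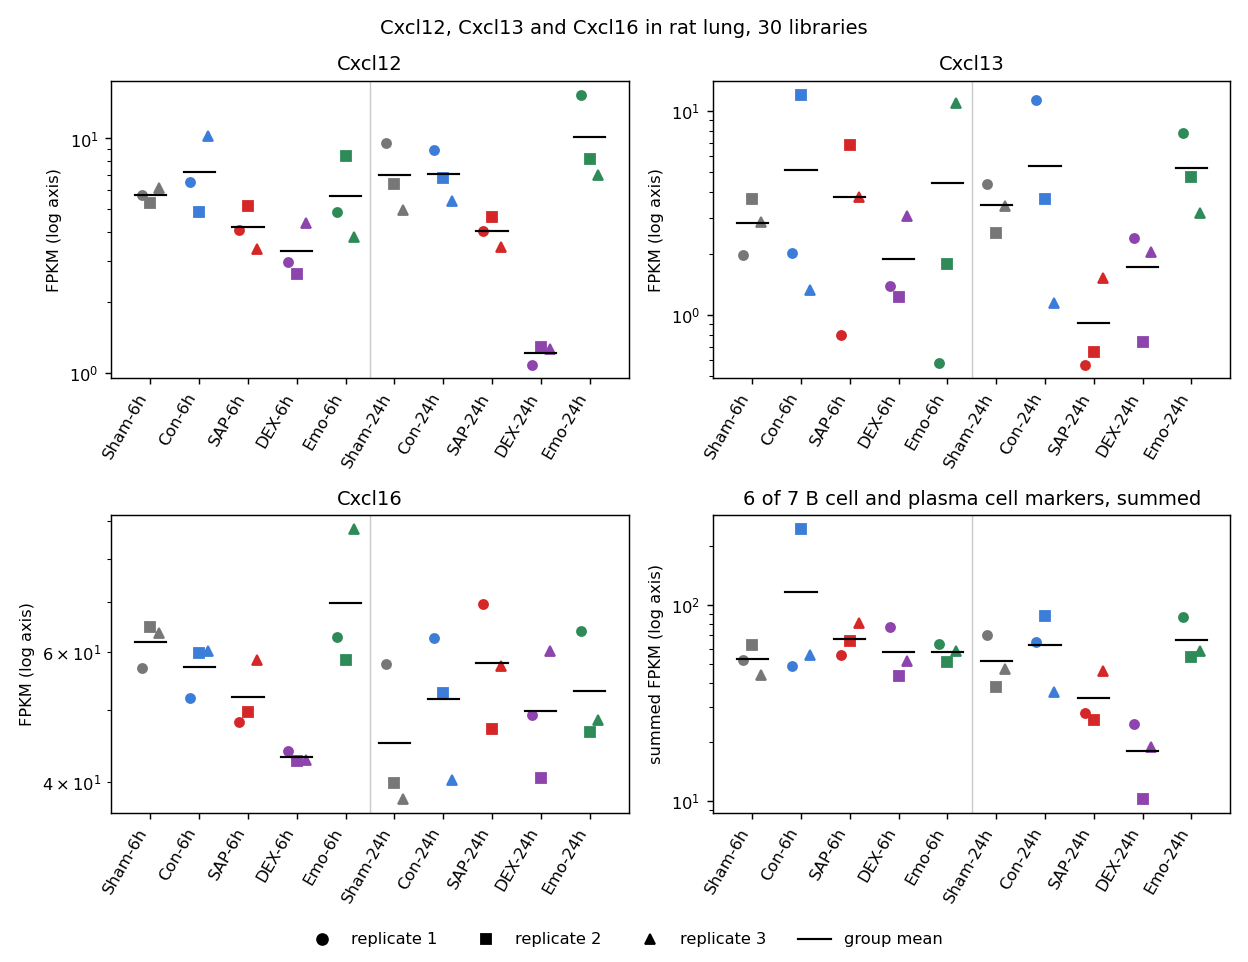
FPKM (log axis) of Cxcl12, Cxcl13 and Cxcl16 and the summed FPKM of the 6 B cell and plasma cell markers that had a row, in each of the 30 libraries, drawn as in the plot of the neutrophil chemokines. The 3 DEX-24h rats have the lowest Cxcl12 of all libraries, 1.08 to 1.29 FPKM.

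Cxcl12 (ENSRNOG00000013589), the stromal cell-derived factor that acts on Cxcr4, gave the steadiest differences of the 10 genes. It was at 1.08, 1.29 and 1.26 FPKM in DEX-24h, from 249, 240 and 234 reads, and at 4.02, 4.63 and 3.43 FPKM in SAP-24h. In Sham-24h it was at 9.59, 6.42 and 4.95 FPKM, in Con-24h at 8.92, 6.79 and 5.43 FPKM and in Emo-24h at 15.41, 8.17 and 6.97 FPKM. The order of the group means was Emo-24h, Con-24h, Sham-24h, SAP-24h and DEX-24h, and no 2 of SAP-24h, DEX-24h and Emo-24h overlapped. Groups did not overlap for 25% of all genes in DEX-24h vs SAP-24h, 29.3% in Emo-24h vs SAP-24h and 29.4% in Emo-24h vs DEX-24h. In DEX-24h vs SAP-24h Cxcl12 fell by 1.83 on the log2 scale (SE 0.32, adjusted p = 0.0015), a 3.55-fold lower level.

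In DEX-24h vs Sham-24h 2 of 10 genes passed, beside 4.15% of all genes, Cxcl9 and Cxcl12, and Cxcl12 was 5.59-fold lower (log2 -2.48, SE 0.33, adjusted p = 0.000134). In Emo-24h vs DEX-24h also 2 of 10 passed, beside 5.06%, again Cxcl9 and Cxcl12, and Cxcl12 was 7.96-fold higher (log2 2.99, SE 0.33, adjusted p = 3.87e-05). At 6 h Cxcl12 was at 2.97, 2.63 and 4.35 FPKM in DEX-6h, and in DEX-24h vs DEX-6h it fell by 1.43 on the log2 scale (SE 0.32, adjusted p = 0.0028). In that comparison 2 of 10 passed, beside 7.14%, the other being Cxcl6, at 0.47, 0.13 and 0.41 FPKM in DEX-24h and 0.03, 0.05 and 0.05 FPKM in DEX-6h (log2 2.87, adjusted p = 0.0308). The 4 Cxcl12 calls with DEX-24h were kept without any 1 library of the groups compared, and with the spread from those groups alone (adjusted p from 0.00528 to 0.0161). The Cxcl6 call, on 2, 3 and 3 reads in DEX-6h, was lost without DEX-6h replicate 1 (0.0949), 2 (0.0723) or 3 (0.0826) or DEX-24h replicate 1 (0.0975) or 3 (0.0687). Markers of other cells also moved in DEX-24h vs DEX-6h. The fibroblast markers summed to 291 to 754 FPKM in DEX-6h and 167 to 229 FPKM in DEX-24h. Called lower, beside 3.91% of all genes, were 3 fibroblast, 8 T cell, 5 B cell and 3 platelet markers. With the spread from those groups alone 4 of the B cell calls and all of the others were kept. The part of these markers in the change of Cxcl12 was not tested.

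Emodin went the other way for Cxcl12. In Emo-24h vs SAP-24h the gene was up-regulated 2.24-fold (log2 1.17, SE 0.31, adjusted p = 0.0246). This call was lost without Emo-24h replicate 1 (log2 0.77, adjusted p = 0.155), Emo-24h replicate 2 (0.0518) or SAP-24h replicate 1 (0.0645) or 3 (0.0742), and with the spread from the compared groups alone (0.126). In SAP-24h vs Sham-24h the groups did not overlap for 29.4% of all genes. Cxcl12 was lower in all 3 SAP-24h rats than in any Sham-24h rat, and its log2 fold change of -0.66 (SE 0.31, adjusted p = 0.163) did not pass. Among the 5 endothelial markers, none passed in DEX-24h vs SAP-24h or DEX-24h vs Sham-24h, beside 3.73% and 4.15% of all genes, and their summed level was 343 to 363 FPKM in DEX-24h and 351 to 365 FPKM in SAP-24h. In Emo-24h it was 518, 412 and 382 FPKM, above all SAP-24h rats and highest in replicate 1, which also had the most Cxcl12. The 5 fibroblast markers summed to 167 to 229 FPKM in DEX-24h, 140 to 247 FPKM in SAP-24h, 332 to 521 FPKM in Sham-24h and 215 to 428 FPKM in Emo-24h. In DEX-24h vs SAP-24h 1 of them (Pdgfra) was called lower (beside 2.55% of all genes), in DEX-24h vs Sham-24h 2 (Col3a1 and Lum) were (3.16%), and in Emo-24h vs SAP-24h Lum was called higher (1.93%) and Pdgfra lower (1.26%). Of these calls only the 2 in DEX-24h vs Sham-24h were kept with the spread from the compared groups alone. In DEX-24h vs DEX-6h Col1a1, Col3a1 and Lum were called lower (log2 -1.99, -2.23 and -2.09, beside 3.91% of all genes). The endothelial marker Kdr was called higher there (log2 1.63, 3.23%). In Emo-24h vs DEX-24h Lum was called higher (log2 2.425, 3.82%). The calls in these last comparisons were all kept in that fit. The part of the endothelial and fibroblast markers in the Cxcl12 results was not tested.

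Cxcl13 (ENSRNOG00000024899), the B cell chemokine, was at 0.57, 0.66 and 1.51 FPKM in SAP-24h, below all Sham-24h rats (4.4, 2.52 and 3.42 FPKM) and all Emo-24h rats (7.82, 4.74 and 3.17 FPKM). The log2 fold changes were -1.79 (SE 0.93, adjusted p = 0.21) in SAP-24h vs Sham-24h and 2.36 (SE 0.94, adjusted p = 0.113) in Emo-24h vs SAP-24h, and neither passed. In these comparisons 29.4% and 29.3% of all genes had groups that did not overlap. Single rats of other groups were high, at 12.05 FPKM in Con-6h, 11.27 FPKM in Con-24h and 10.99 FPKM in Emo-6h. The B cell markers summed to 245 FPKM in the same Con-6h rat, against 49.1 and 55.8 FPKM in the others of its group, but to 64.9 FPKM in the Con-24h rat and 58.6 FPKM in the Emo-6h rat, which lie within the range of the other libraries.

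Cxcl16 (ENSRNOG00000026647), the ligand of Cxcr6, varied little between groups. Its group means ran from 43.2 ± 0.757 FPKM (SD, n = 3) in DEX-6h to 69.7 ± 15.9 FPKM (SD, n = 3) in Emo-6h, and no neighbours in the order of the 10 group means differed by more than the larger of their SDs. It passed in none of the 24 comparisons. In Emo-6h vs DEX-6h it was 1.61-fold higher (log2 0.69, SE 0.19, adjusted p = 0.0536), with groups that did not overlap, as for 21% of all genes.

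In the order of group means the neighbours of the other genes rarely differed beyond their spread either. Of 9 gaps between neighbouring groups per gene, 1 exceeded the larger of the 2 SDs for Cxcl1, Cxcl2, Cxcl10 and Cxcl12, 2 did for Cxcl9 and 0 did for Cxcl3, Cxcl6, Cxcl11, Cxcl13 and Cxcl16. For Cxcl2 it was the gap below SAP-24h (6.7 ± 5 FPKM, n = 3) to DEX-24h (1.67 ± 0.82 FPKM, n = 3). For Cxcl12 it was the gap between DEX-6h (3.32 ± 0.911 FPKM, n = 3) and DEX-24h (1.21 ± 0.114 FPKM, n = 3). For Cxcl9 the gaps lay between DEX-6h (1.96 ± 0.841 FPKM, n = 3) and SAP-24h (0.577 ± 0.224 FPKM, n = 3), and between SAP-24h and DEX-24h (0.35 ± 0.173 FPKM, n = 3).

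In 12 of the 21 two-group comparisons none of the 10 genes passed by edgeR. Besides the 3 given above these were Con-6h vs Sham-6h (0% of all genes called), Emo-6h vs SAP-6h (0.0251%), DEX-6h vs Sham-6h (3.97%), Emo-6h vs Sham-6h (0.477%), Con-24h vs Sham-24h (1%), Emo-24h vs Sham-24h (0%), Sham-24h vs Sham-6h (0.257%), Emo-24h vs Emo-6h (9.41%) and Con-24h vs Con-6h (0.00628%). At an unadjusted p below 0.05 and at least 2-fold the count was 2 in Emo-6h vs SAP-6h (Cxcl1 and Cxcl10, beside 2.85% of all genes), 1 in Emo-6h vs Sham-6h (Cxcl10, beside 3.35%), 2 in Con-24h vs Sham-24h (beside 2.92%) and 2 in Con-24h vs Con-6h (beside 3.4%), Cxcl10 and Cxcl11 in both. It was 0 in Con-6h vs Sham-6h (beside 1.79%), DEX-6h vs Sham-6h (6.8%), Emo-24h vs Sham-24h (1.3%), Sham-24h vs Sham-6h (3.26%) and Emo-24h vs Emo-6h (11.5%). DESeq2 called Cxcl10 in Emo-6h vs SAP-6h, Emo-6h vs Sham-6h and Con-24h vs Sham-24h, beside 0.167%, 1.35% and 1.35% of all genes, and none in these 5 comparisons (0.044%, 4.89%, 0%, 1.22% and 9.81%, in the order given) or in Con-24h vs Con-6h (0.679%). The tests of whether the SAP effect or the dexamethasone effect differed between 24 h and 6 h called 0 genes of the 10 (beside 0.0314% and 0.138% of all), with 4 and 3 at an unadjusted p below 0.05 and at least 2-fold (beside 6.27% and 4.85% of all) and 2 each by DESeq2 (beside 0.994% and 1.37%). For Cxcl2 these differences were 3.05 (SE 0.88, adjusted p = 0.173) and -2.36 (SE 0.85, adjusted p = 0.217) on the log2 scale.

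Of 8 receptor genes of the list 7 were tested, and 4 passed in SAP-24h vs Sham-24h, beside 5% of all genes. Ackr3, a scavenger of Cxcl12 and Cxcl11, was up-regulated 5.8-fold (log2 2.54, SE 0.37, adjusted p = 0.000473), from 68.7 ± 29.2 FPKM to 358 ± 160 FPKM (SD, n = 3 each), and Cxcr1, a neutrophil receptor, was up-regulated 2.41-fold. Cxcr3, the receptor of Cxcl9, Cxcl10 and Cxcl11, was down-regulated 3.59-fold (log2 -1.84, SE 0.51, adjusted p = 0.0224), from 4.25 ± 1.34 FPKM to 1.08 ± 0.0321 FPKM (SD, n = 3 each), and Cxcr6, the receptor of Cxcl16, 2.34-fold. Cxcr2, the receptor of Cxcl1, Cxcl2, Cxcl3 and Cxcl6, had a log2 fold change of 2.04 (SE 0.76, adjusted p = 0.079) and did not pass there, but was up-regulated 19.8-fold in SAP-24h vs Con-24h (adjusted p = 0.00184). Cxcr5, the receptor of Cxcl13, was at log2 -0.01 (SE 0.43, adjusted p = 0.988) in SAP-24h vs Sham-24h. Against SAP-24h, Ackr3 and Cxcr1 were down-regulated with either drug at 24 h, Ackr3 by 3.59-fold with dexamethasone and 3.69-fold with emodin. With the spread from the compared groups alone, a fit added after seeing the data, all 4 receptor calls in SAP-24h vs Sham-24h were lost (adjusted p from 0.0609 for Cxcr3 to 0.0995 for Cxcr1), as were both in Emo-24h vs SAP-24h (0.104 for Ackr3 and 0.151 for Cxcr1) and Cxcr1 in DEX-24h vs SAP-24h (0.192), while Ackr3 was kept in DEX-24h vs SAP-24h (0.0491), Cxcr2 in SAP-24h vs Con-24h (0.0311) and both Cxcr3 calls that follow (0.0303 and 0.0131). Cxcr3 was up-regulated 3.53-fold in Emo-24h vs DEX-24h and down-regulated 4.86-fold in DEX-24h vs Sham-24h. T cells and NK cells carry Cxcr3, and the summed T cell markers moved the same way, at 12.5 to 19.7 FPKM in DEX-24h, 21.3 to 24.8 FPKM in SAP-24h, 65.7 to 95.9 FPKM in Sham-24h and 26.8 to 95.9 FPKM in Emo-24h. Cxcr2 is also 1 of the 12 neutrophil markers described with the cell types, and the part of these cells in the receptor changes was not tested. Cxcr4, the receptor of Cxcl12, passed in none of the 24 comparisons and had group means between 25.5 and 56.2 FPKM.

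Of the other 4 CXC ligands of the list (Cxcl14, Cxcl17, Pf4 and Ppbp) only Cxcl14 passed in any comparison of the 24 h groups, namely against SAP-24h with either drug and in DEX-24h vs Sham-24h, beside 3.73%, 3.19% and 4.15% of all genes. Cxcl14, an epithelial chemokine, was at 47.3 ± 24.4 FPKM in SAP-24h, 8.85 ± 1.01 FPKM in DEX-24h and 12.7 ± 4.53 FPKM in Emo-24h (SD, n = 3 each). It was 5.79-fold lower in DEX-24h vs SAP-24h (adjusted p = 0.000923) and 4.25-fold lower in Emo-24h vs SAP-24h (adjusted p = 0.00565), where Cxcl12 moved in opposite directions. With the spread from the compared groups alone the call with dexamethasone was kept (0.0378) and that with emodin lost (0.106). Of 5 enzymes that trim or shed CXC chemokines, the neutrophil proteases Mmp8 and Mmp9 were higher in SAP-24h vs Con-24h, 40.7-fold and 41.6-fold, beside 3.65% of all genes called higher and both kept in that fit, and none of the 5 passed in SAP-24h vs Sham-24h, beside 5% of all genes. Mmp8 and Mmp9 were also called lower in Con-24h vs Sham-24h (log2 -3.70, adjusted p = 0.0234, and log2 -3.10, 0.0309), beside 0.916% of all genes called lower. These 2 calls were lost in that fit (0.135 and 0.15).

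NF-kB and cytokine genes were followed as a list of 12, of which 9 were tested. In SAP-24h vs Con-24h 3 of them passed, all higher (beside 3.65% of all genes), Il1b and Il6, cytokines, and Nfkbiz, an inducible co-factor of NF-kB, and the median log2 fold change of the list was 0.57 beside -0.008 for all genes. In SAP-24h vs Sham-24h only Il6 passed (log2 5.71, SE 1.45, adjusted p = 0.0141), beside 1.98% of all genes called higher, and Il6 was down-regulated against SAP-24h with dexamethasone and with emodin at 24 h. Il6 stood at 3.92 ± 6.18 FPKM (SD, n = 3) in SAP-24h, so the rats of that group were uneven. None of the 3 calls in SAP-24h vs Con-24h was kept with the spread from the compared groups alone, and Il6 had no value in SAP-24h vs Sham-24h or against SAP-24h with either drug. In SAP-6h vs Con-6h Il1a was called higher (log2 2.51, adjusted p = 0.0315, beside 0.113% of all genes). Nfkbia was called lower in Emo-24h vs DEX-24h (log2 -1.61, adjusted p = 0.00544, beside 1.24%). Both of these calls were kept in that fit (0.0365 and 0.0385). The list summed to 699, 713 and 659 FPKM in DEX-24h, above all SAP-24h rats (492, 413 and 583 FPKM), although Il6 was lower. It summed to 677 to 795 FPKM in DEX-6h, above all SAP-6h rats (410 to 559 FPKM). Nfkbia had the highest median of the list over all libraries, 334 FPKM (130 to 689 FPKM), followed by Nfkb1 at 23.9 FPKM. The sums thus mainly follow Nfkbia and not the list as a whole. In DEX-6h vs Sham-6h Il1a, Csf2 and Nfkbia were called higher (beside 2.25% of all genes), and Il1a and Nfkbia were kept with the spread from the compared groups alone. Tnf was at 0 FPKM in 24 and 29 libraries for its 2 rows.

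Of the 14 interferon genes 12 were tested. All 12 were higher in Emo-24h than in DEX-24h by fold change and 6 passed (beside 3.82% of all genes), among them the transcription factors Irf1 and Irf8, the guanylate-binding protein genes Gbp2 and Gbp5 and the antiviral gene Mx1, with a list median of log2 2.80 beside 0.007 for all genes. Their summed level was 997, 357 and 1140 FPKM in Emo-24h and 157, 123 and 116 FPKM in DEX-24h. In Emo-24h vs SAP-24h only Gbp5 passed, 4.86-fold higher (beside 1.93% of all genes), and in Emo-6h vs DEX-6h Irf1, Gbp2 and Gbp5 did, also higher (beside 0.759%). The Emo-6h rats were uneven in them, from lowest to highest at 14.8, 17.4 and 202 FPKM for Gbp2, 5.86, 7.22 and 52.6 FPKM for Gbp5 and 43.1, 51.5 and 91.8 FPKM for Irf1. All 6 calls in Emo-24h vs DEX-24h were kept with the spread from the compared groups alone, and those in Emo-24h vs SAP-24h and Emo-6h vs DEX-6h were lost. Ifng was at 0 FPKM in 14 of 30 libraries and Ifnb1 in 29.

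**Figure D5:**
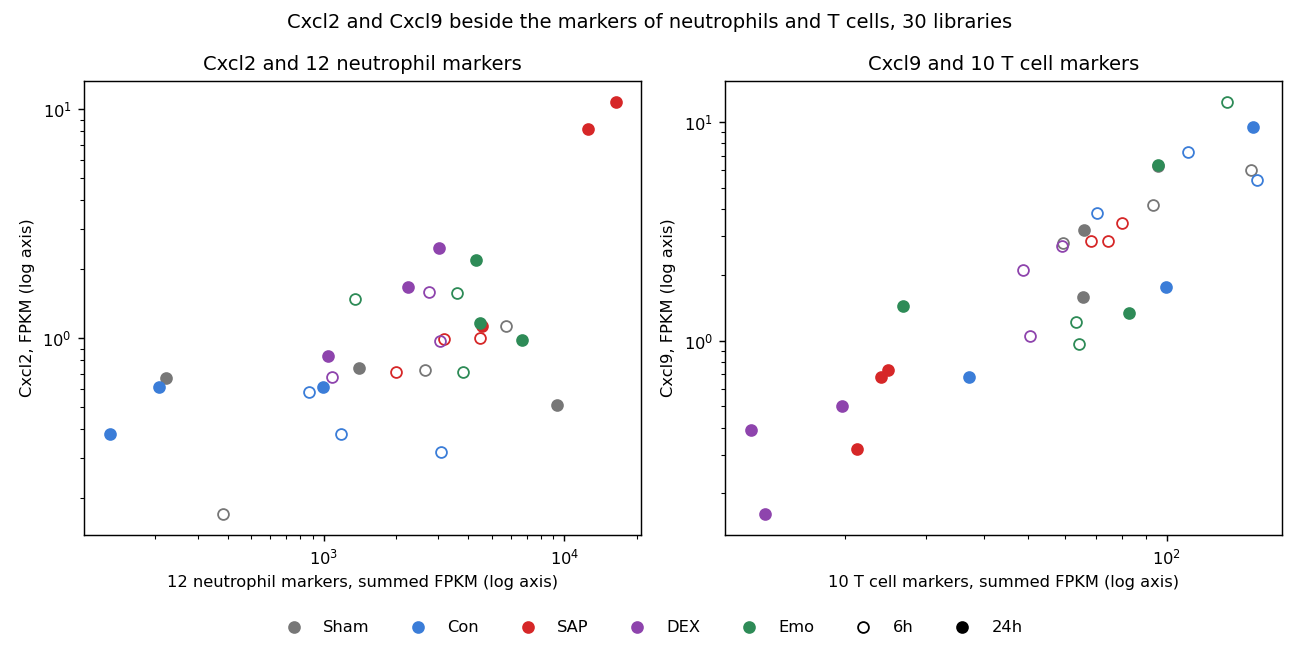
FPKM of Cxcl2 against the summed FPKM of 12 neutrophil markers (left) and FPKM of Cxcl9 against the summed FPKM of 10 T cell markers (right), both on log axes, with 1 point per library, colours for the treatments, open points for 6 h and filled points for 24 h. SAP-24h replicates 1 and 3 are highest on both axes of the left panel, and the SAP-24h and DEX-24h libraries are lowest on the horizontal axis of the right one.

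Neutrophil markers moved with Cxcl2 and T cell markers with Cxcl9 over the 24 h groups, with exceptions, and their part in the results was not tested. The 12 neutrophil markers, led by S100a8 and S100a9, summed to 12600, 4540 and 16400 FPKM in SAP-24h, and Cxcl2 was high in the same 2 rats. The sum was 1400, 222 and 9300 FPKM in Sham-24h, 990, 129 and 207 FPKM in Con-24h, 2240, 1040 and 3010 FPKM in DEX-24h and 4460, 6660 and 4320 FPKM in Emo-24h. The Sham-24h rat with 9300 FPKM of neutrophil markers had 0.51 FPKM of Cxcl2, the lowest of its group, and 11.01 FPKM of Cxcl1, between the other two. Cxcl3 did not follow these markers within SAP-24h, being at 341.92 FPKM in replicate 2, with a sum of 4540 FPKM, and at 92.58 FPKM in replicate 1, with 12600 FPKM. Of the 12 markers 11 were called higher in SAP-24h vs Con-24h (beside 3.65% of all genes), 1 (Itgam) in SAP-24h vs Sham-24h (1.98%), and 3 were called lower in DEX-24h vs SAP-24h (2.55%). Of these calls 7 of 11, 0 of 1 and 3 of 3 were kept with the spread from the compared groups alone. In Con-24h vs Sham-24h 4 markers (Mmp8, S100a8, Fpr1 and Camp) were called lower (0.916%), and in Emo-24h vs SAP-24h 1 (Camp) was (1.26%). None of the calls in these last comparisons was kept in that fit, where Fpr1 had no value. Mpo, Elane and Fpr1 were each at 0 in 1 library.

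The 10 T cell markers summed to 21.3, 24 and 24.8 FPKM in SAP-24h, 19.7, 12.5 and 13.4 FPKM in DEX-24h, 95.9, 66 and 65.7 FPKM in Sham-24h, 154, 99.6 and 37.2 FPKM in Con-24h and 95.9, 82.7 and 26.8 FPKM in Emo-24h. Of these markers 6 were called lower in SAP-24h vs Sham-24h and 10 in DEX-24h vs Sham-24h, beside 3.01% and 3.16% of all genes, and 9 were called higher in Emo-24h vs DEX-24h, beside 3.82%. Taken in the same order, 0 of 6, 9 of 10 and 6 of 9 calls were kept with the spread from the compared groups alone. No T cell marker was at 0 in any library. Cxcl9 and the T cell markers were thus low in SAP-24h and DEX-24h, while Emo-24h replicate 3, with 26.8 FPKM of T cell markers, had 1.44 FPKM of Cxcl9, more than any SAP-24h or DEX-24h rat. Cxcl10 did not follow the T cell markers within Emo-24h, being at 14.69 FPKM in that rat and at 2.61 FPKM in replicate 2, with 82.7 FPKM of them. The NK and cytotoxic cell markers, 5 of them with a row, moved likewise, with sums of 23.2, 15.6 and 17.7 FPKM in SAP-24h, 19.1, 8.87 and 4.45 FPKM in DEX-24h, 54.4, 38.5 and 51.4 FPKM in Sham-24h and 74.2, 72.3 and 15 FPKM in Emo-24h. Of these 5 markers 1 (Ncr1) was called lower in SAP-24h vs Sham-24h (beside 3.01% of all genes), 2 (Prf1 and Klrd1) in DEX-24h vs Sham-24h (3.16%), and the same 2 were called higher in Emo-24h vs DEX-24h (3.82%). The B cell markers summed to 25.9 to 46 FPKM in SAP-24h, 10.2 to 24.6 FPKM in DEX-24h, 38.2 to 70.1 FPKM in Sham-24h and 54.2 to 86.5 FPKM in Emo-24h, and 5 of the 6 tested were called higher in Emo-24h vs DEX-24h, beside the same 3.82%. With the spread from the compared groups alone, of the NK calls only Klrd1 in DEX-24h vs Sham-24h was kept, and all 5 of the B cell calls in Emo-24h vs DEX-24h were. B cell markers were also called lower in DEX-24h vs SAP-24h (3, beside 2.55% of all genes) and in DEX-24h vs Sham-24h (4, beside 3.16%). Of these, 1 (Cd79a) and 3 were kept in that fit. The part of the NK and B cell markers in the results was not tested. In SAP-24h vs SAP-6h, where Cxcl1, Cxcl2 and Cxcl6 were called higher by edgeR, markers of other cells were called lower (beside 1.74% of all genes). They were 3 of T cells, 3 of fibroblasts, 2 of platelets and 2 of red blood cells. With the spread from the compared groups alone the T cell and red blood cell calls and that of Col3a1 were kept. Their part in the chemokine values was not tested.

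The genes most like each chemokine over the 30 libraries, by Pearson's r on log2 counts scaled to library size, are given as a description, since the libraries share groups and times. For Cxcl2 they were Nfkbiz (r = 0.895), Zc3h12a (0.841) and Bcl10 (0.826), and for Cxcl1 Smoc2 (0.807), Lrp1 (0.794) and Nfkbiz (0.761). Without the 2 libraries farthest from the median of the chemokine these values were 0.787, 0.681 and 0.816 for Cxcl2 and 0.481, 0.584 and 0.555 for Cxcl1. The r of Cxcl1 with Smoc2 was 0.353 at 6 h and 0.92 at 24 h. For Cxcl6 they were Map4k4 (0.708), Irg1 (0.708) and Gpr84 (0.699), and for Cxcl3 Nipal4 (0.737), Ccdc77 (0.679) and Dis3l (0.677). Without the 2 farthest libraries these values fell to 0.629, 0.544 and 0.521 for Cxcl6 and to 0.592, 0.608 and 0.432 for Cxcl3. The likeness of Cxcl6 with Gpr84 was seen at 24 h (r = 0.935) and not at 6 h (r = -0.00158), and that with Irg1 was 0.842 at 24 h and 0.283 at 6 h. Among the genes most like Cxcl10 were Ifi27l2b and Igtp (0.926 each), and Cxcl11 was most like Ifi27l2b (0.824), Psmb9 (0.791) and Pla2g16 (0.787), which fell to 0.7, 0.557 and 0.556 without the 2 farthest libraries of Cxcl11. Cxcl9 was most like Cd8b, a chain of the T cell co-receptor (0.885), Lat, a T cell adaptor (0.883), and Ctsw (0.882), and these held at 0.84 or more without the 2 farthest libraries. Cxcl12 was most like Lrrn1 (0.89), Il33 (0.848) and Plxnd1 (0.839), Cxcl13 most like Rarres1 (0.77), Kmo (0.75) and Nipal1 (0.744), and among those most like Cxcl16 were Pus1 (0.785) and Rrp15 (0.767). Those named for Cxcl10, Cxcl12, Cxcl13 and Cxcl16 were at 0.678 or more without the 2 farthest libraries. By Spearman's rho the genes most like each member differed in part or in full from those by r. For Cxcl1 they were Ankfy1 (rho = 0.688), Msrb3 (0.688) and Dusp12 (0.685), and Smoc2 had a rho of 0.519.

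Among the 45 pairs of the 10 chemokines the highest r was that of Cxcl10 with Cxcl11, 0.857 (0.861 at 6 h and 0.858 at 24 h, 15 libraries each), followed by Cxcl1 with Cxcl2 at 0.76. Cxcl9 had an r of 0.624 with Cxcl13. The lowest r was that of Cxcl2 with Cxcl9, -0.511.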

How the data were processed

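Lung RNA of 30 rats was sequenced as polyA-selected, directional, paired libraries. Per the labels and the methods of the study, the authors trimmed the reads, aligned them with TopHat2 to the rat Ensembl v6 genome, discarded multi-mapped reads and counted reads per gene with a program not given in the sources used here. The authors deposited read counts per gene, which are raw counts, and FPKM, normalised by the authors to gene length and mapped reads and rounded. All per-sample columns were used. The share of uniquely mapped reads was lower in all taurocholate libraries than in the Sham and Con libraries, so mapping and infusion cannot be told apart.

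Here the counts were fitted with edgeR 4.0.16 (R 4.3.3; quasi-likelihood test, filterByExpr with a minimum count of 10, TMM scaling, 10 groups, 20 residual degrees of freedom, no covariate), with Benjamini-Hochberg adjustment over 15934 genes per comparison, for 24 comparisons. Calls needed both an adjusted p below 0.05 and a change of at least 2-fold. The SE of a log2 fold change was derived from the test, as its absolute value divided by the square root of the F statistic. Levels, sums and overlaps of groups are in FPKM as deposited. RefSeq tables (GRCr8) gave promoter sequences, their coordinates and gene order; motifs were chosen after the sequences were seen. The alternatives were RLE scaling, DESeq2 1.42.0, fits on the compared groups alone, no filter on low counts, a block for the replicate number, other thresholds, and leaving out each library. Tested on counts simulated for SAP-24h vs Sham-24h (15934 genes), the fit called 35 of 100 genes changed 2-fold, 85 of 100 changed 4-fold and 4 unchanged ones. The simulated counts followed the model of the fit, with the same spread of a gene in all groups. They do not show how reliable calls are in groups with single outlying rats.

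The genes described are the 10 members, the other ligands, receptors, enzymes, inducers and cell markers of fixed lists, and the 3 genes most like each member, of which some are not reported here. Members and lists were chosen with earlier results of these data known.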

Additional observations from a re-analysis of the deposited data

Results flagged for a closer look

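The difference itself, Emo-24h vs SAP-24h minus Emo-6h vs SAP-6h, was tested with edgeR's quasi-likelihood test, adjusted over all genes. The rows followed were those of members, other ligands, receptors, enzymes, NF-kB, cytokine and interferon genes and glucocorticoid targets. Effects of emodin differed between 24 h and 6 h for 3 of these 55 gene rows, beside 1.68% of all genes. Cxcl1 had a difference of -3.18 on the log2 scale (adjusted p = 0.0411), Cxcl14 one of -2.40 (adjusted p = 0.0295) and Il6 one of -8.79 (adjusted p = 0.0326). Il6 stood at 0.08, 0.63 and 11.0 FPKM in the SAP-24h rats in order of level, at 0, 0.15 and 1.03 FPKM in Emo-6h, at 0.02, 0.05 and 0.06 FPKM in SAP-6h and at 0, 0.11 and 0.16 FPKM in Emo-24h, so its difference leans on single rats. In refits added after seeing the data, the call of Il6 was kept without 5 of the 12 libraries and lost without the other 7, with -5.20 (adjusted p = 0.108) without SAP-24h replicate 1 and -6.43 (adjusted p = 0.166) without Emo-6h replicate 3. That of Cxcl14 was kept without 6 of the 12 and lost without the other 6, with -1.83 (adjusted p = 0.064) without SAP-24h replicate 1. That of Cxcl1 was kept without 5 of the 12 and lost without the other 7, with -1.77 (adjusted p = 0.134) without SAP-24h replicate 1. All 3 were lost with the spread from the compared groups alone (adjusted p = 0.137 for Il6, 0.127 for Cxcl14 and 0.15 for Cxcl1). Emo rats had more Cxcl1 than SAP rats at 6 h and a lower mean at 24 h. Cxcl14 stood at 101 ± 36.3 FPKM in Emo-6h and 81.5 ± 12.8 FPKM in SAP-6h, and at 12.7 ± 4.53 FPKM in Emo-24h and 47.3 ± 24.4 FPKM in SAP-24h (SD, n = 3 each).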

How the results depend on the processing

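Numbers in this paragraph are counts of the 10 chemokines called unless said otherwise. With the spread estimated from the compared groups alone, the count was 0 in place of 1 in Emo-6h vs DEX-6h, 0 in place of 3 in SAP-24h vs Sham-24h, 0 in place of 5 in SAP-24h vs Con-24h, 1 in place of 3 in DEX-24h vs SAP-24h, 0 in place of 2 in Emo-24h vs SAP-24h, 1 in place of 3 in SAP-24h vs SAP-6h (Cxcl9, which was not among the 3) and 0 in place of 1 for the emodin effect at 24 h minus 6 h, and it was 3 in place of 2 in Emo-24h vs DEX-24h. The share of all genes called by that fit was, in the same order, 0.597%, 0.02%, 1.56%, 1.49%, 0%, 1.19%, 0.0129% and 5.4%. Of the 24 calls 17 were lost there, 6 were kept and 1, Cxcl6 in DEX-24h vs DEX-6h, had no value. That fit has fewer libraries. At an unadjusted p, still with at least 2-fold, the counts were 2 in Emo-6h vs SAP-6h (2.85%), 3 in Emo-6h vs DEX-6h (beside 5.23% of all genes), 1 in Emo-6h vs Sham-6h (3.35%), 2 in Con-24h vs Sham-24h (2.92%), 6 in Emo-24h vs SAP-24h (7.42%), 2 in Con-24h vs Con-6h (3.4%), 6 in SAP-24h vs SAP-6h (6.72%), and 4, 3 and 3 (6.27%, 4.85% and 8.78%) for the SAP, dexamethasone and emodin effects at 24 h minus 6 h. DESeq2 gave 1 in Emo-6h vs SAP-6h, Emo-6h vs Sham-6h and Con-24h vs Sham-24h (beside 0.167%, 1.35% and 1.35% of all genes) and 2 for each of the 3 effects at 24 h minus 6 h (0.994%, 1.37% and 3.95%), 4 in place of 3 in SAP-24h vs Sham-24h (6.16%) and SAP-24h vs SAP-6h (3.85%), 6 in place of 5 in SAP-24h vs Con-24h (7.6%), 3 in place of 2 in Emo-24h vs SAP-24h (4.39%), Emo-24h vs DEX-24h (6.2%) and DEX-24h vs DEX-6h (7.61%), and no adjusted p for Cxcl11 in SAP-24h vs Con-24h. RLE scaling and no filter each gave 0 in Emo-6h vs DEX-6h (1.29% and 0.842%), and no filter gave 1 in Emo-24h vs DEX-24h (3.24%). Leaving out 1 library at a time gave, with the share of all genes called in brackets, 0 to 1 in Emo-6h vs DEX-6h (0.279% to 1.72%), Emo-6h vs Sham-6h (0.0309% to 1.28%), Con-24h vs Sham-24h (0.161% to 2.26%), Emo-24h vs Emo-6h (6.94% to 10.8%) and for the dexamethasone effect at 24 h minus 6 h (0% to 0.291%), 0 to 2 for the emodin effect (0.0062% to 3.75%), 1 to 3 in SAP-24h vs Sham-24h (2.49% to 5.2%) and DEX-24h vs SAP-24h (2.09% to 3.93%), 2 to 6 in SAP-24h vs Con-24h (3.8% to 8.63%), 0 to 4 in Emo-24h vs SAP-24h (0.843% to 3.23%), 2 to 3 in SAP-24h vs SAP-6h (1.14% to 2.87%), and 1 to 2 in Emo-24h vs DEX-24h (2.39% to 5.52%), DEX-24h vs Sham-24h (1.88% to 4.16%) and DEX-24h vs DEX-6h (5.1% to 6.37%). All leave-one-out fits kept 8 of the 24 calls. Without Emo-6h replicate 3 the log2 fold change of Cxcl10 in Emo-6h vs Sham-6h turned to -0.47, with up to 6.06 without another library, and without Con-24h replicate 1 that of Cxcl11 in Con-24h vs Sham-24h turned to -0.67, with up to 4.42 without another library. Of the 39 single values followed under all alternatives, 337 refits kept direction and call, 87 lost the call, 20 gained it and 2 turned. Other causes of these changes were not tested.

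Same-numbered replicates shared no pairing in the labels. Over 63 pairs the correlation of deviations from group means ran from -0.363 to 0.359 (median 0.0366). Among the compared groups, all 3 values were over 0.1 only for DEX-6h with DEX-24h (0.212, 0.221 and 0.23), and there the block kept both calls, Cxcl6 (adjusted p = 0.0315) and Cxcl12 (0.00339). With the replicate block the count was 0 in Emo-6h vs DEX-6h and 1 in Emo-24h vs DEX-24h (1.22% and 4.76% of all genes), and Cxcl9 in SAP-24h vs Con-24h was also lost. Depth limits Cxcl6 and Cxcl11 most, with 387 and 918 reads over all libraries.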
